A study of Homo sapiens with 2 samples.

Results

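The TET and DNMT genes encode the enzymes that remove and place methyl groups on DNA. The 6 genes described here, TET1, TET2, TET3, DNMT1, DNMT3A and DNMT3B, were taken by gene name from a table of 47352 gene names. The longest transcript listing of each was used, 942 of 1983959 windows in all, where a window is a stretch of 100 nt and a new one starts every 50 nt along an exon. TET2, TET3, DNMT1 and DNMT3A counted as measured, which asks for a mean input of 1 or more on the authors' coverage scale and was met by 10756 genes of the table. TET1 and DNMT3B fell below that minimum and are described with their read numbers.

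DNMT1 copies existing methylation of cytosine onto the new DNA strand after replication, and DNMT3A and DNMT3B place methylation on unmethylated sites. TET1, TET2 and TET3 oxidise 5-methylcytosine to 5-hydroxymethylcytosine and further products, which leads to loss of the mark by dilution or by base excision repair. In blood cells TET2 and DNMT3A are best known as genes that are recurrently mutated in clonal haematopoiesis and leukaemia. The measurement reported here is of another modification, N6-methyladenosine (m6A), on the messenger RNA of these genes.

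The study compared 1 m6A immunoprecipitated (IP) library with 1 input library, both from untreated GM12878 cells, a human B lymphoblastoid line that was immortalised by Epstein-Barr virus. RNA was broken into fragments, those bound by an m6A antibody were recovered for the IP, unselected fragments formed the input, and both libraries kept the strand. The longest listings carried approximately 56.9 M reads in the IP and 50.3 M in the input. No replicate exists, so no difference below has a replicate check and no p-value is given; the 95% intervals cover counting error only. One label gives the source as mouse embryonic stem cells, whereas the organism and cell line labels name human GM12878. In the input all 7 B cell markers were measured, the highest being CD74 at 775, and none (0) of 5 pluripotency markers was, the highest being SOX2 at 0.153. Of 4 T cell, 4 myeloid and 4 fibroblast markers, 1 each was measured, CD3E at 1.52, ITGAM at 1.12 and THY1 at 1.69, while CD3D was at 0. The window scores used below are log2 values, IP over its gene median divided by input over its gene median, with 1 added to each number, so that a score of 2 is 4-fold. A run of at least 2 windows at a score of 2 or more is called an enriched region. Windows carry no genome coordinates. Exon numbers below are in transcript order, taken from the strand that RefSeq gives each gene on GRCh38.p14. In the table itself, the longer terminal exon had the highest number in 92.7% of 3371 measured genes on the plus strand and was exon 1 in 92.3% of 3122 on the minus strand.

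The IP and the input placed the 6 transcripts in different orders. Mean scaled IP coverage per window, which is a level per length, was highest for TET2 at 16 (15.8 to 16.3), next DNMT1 at 14.7 (14.4 to 15.01), TET3 at 9.84 (9.66 to 10.03), DNMT3A at 5.09 (4.89 to 5.29), TET1 at 1.01 (0.946 to 1.07) and DNMT3B at 0.117 (0.0889 to 0.152). In the input the maintenance enzyme DNMT1 was highest at 15.5 (95% interval 15.3 to 15.8), followed by DNMT3A at 3.62 (3.49 to 3.76), TET2 at 3.43 (3.34 to 3.52) and TET3 at 3.15 (3.06 to 3.23). TET2 thus exceeded DNMT1 in the IP although its input was lower. The input intervals of DNMT3A and TET2 overlapped, and by the median over windows TET2 (2.74) stood above DNMT3A (2.62). TET1 at 0.168 (0.148 to 0.190) and DNMT3B at 0.137 (0.112 to 0.166) were also not separated in the input. In a bulk library fewer cells with a transcript and less RNA per cell cannot be told apart.

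The log2 ratio of mean IP to mean input along the whole transcript was 2.58 (2.39 to 2.78) for TET1, 2.22 (2.18 to 2.27) for TET2 and 1.65 (1.60 to 1.69) for TET3. It was 0.49 (0.41 to 0.57) for DNMT3A, -0.08 (-0.12 to -0.04) for DNMT1 and -0.22 (-0.69 to 0.24) for DNMT3B. All 3 TET genes lay above the upper quartile of measured genes (1.51, with a median of 0.44), and the 3 DNMT genes did not. TET1 and DNMT3B are not themselves among the measured genes. Among the 2020 measured genes with 98 to 223 windows, the range of the 4 measured members, the median ratio was 0.93 and the quartiles 0.11 and 1.78. TET3 and DNMT3A lay between these quartiles, TET1 and TET2 above them, and DNMT1 and DNMT3B below. The interval of DNMT3B included the lower of these quartiles. The authors' scaling of the libraries is unknown, so a ratio of 0 does not mark equal amounts. With medians over windows in place of means the ratios were lower, 0.63 for TET2, 0.42 for TET3 and 0.067 for TET1, and that of DNMT3A turned to -0.35.

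Of the 4 measured genes, 3 had an enriched region, against 44.2% of all 10756 measured genes. Among the 2020 of this length, 74.0% had one, so that the count of 3 of 4 is near the background for transcripts of this length. The genes differed among themselves in how many regions they had and where these lay, as follows.

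TET2, which lacks the CXXC DNA-binding domain that its relatives carry, had 7 regions in 2 exons. The first 4 lay in exon 3, the large internal exon of 70 windows, and the other 3 in the last exon, exon 11 of 96 windows. The longest, of 14 windows, ran from 2000 to 2750 nt after the start of exon 3. Its peak had 81.6 (76.2 to 87.4) in the IP and 3.84 (2.93 to 4.94) in the input, a score of 4.27. The region of 12 windows at 100 to 750 nt of exon 11 peaked at 117 (111 to 124) in the IP and 6.43 (5.24 to 7.81) in the input, a score of 4.17. The remaining regions of exon 3 began 1450, 2850 and 3200 nt into it and scored 3.93, 2.49 and 3.31 at their peaks. Those of exon 11 began at 750 and 1250 nt and scored 2.91 and 3.67. The other 9 exons had no region, and the mean IP was below the mean input in 6 of them. Exon 4, for example, averaged 0.307 in the IP and 0.832 in the input.

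In TET2 the 47 enriched windows, 23.4% of its 201, held 77.7% of the gene's IP coverage and 37.9% of its input coverage. Measured genes as a whole had 5.75% of their windows enriched. In exons of 11 or more windows, which held 166 of the TET2 windows, the share was 28.3% in TET2 and 9.96% in measured genes. The gene-level score, which is the highest mean of 2 consecutive windows, was 4.17 (3.89 to 4.45) for TET2 and exceeded that of 89% of other measured genes. Among the 2020 genes of 98 to 223 windows, however, the median was 3.20 and the quartiles 2.03 and 4.25. The value of TET2 thus lay near the upper quartile for its length, which its interval included. Its gene medians (1.72 in the IP and 2.08 in the input) run over both listings of the gene. With medians of 4.24 in the IP and 2.74 in the input over the listing used here, the score was 3.51. The second TET2 listing, of 186 windows in 3 exons, ends in an exon of 178 windows with mean coverage of 8.31 in the IP and 1.89 in the input. It had 4 regions and the same gene-level score of 4.17 at the same peak. The antisense transcript TET2-AS1 carried about 1.01 reads in the IP and 0 in the input over its 13 windows, where 0 allows up to 3 reads.

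**Figure D1:**
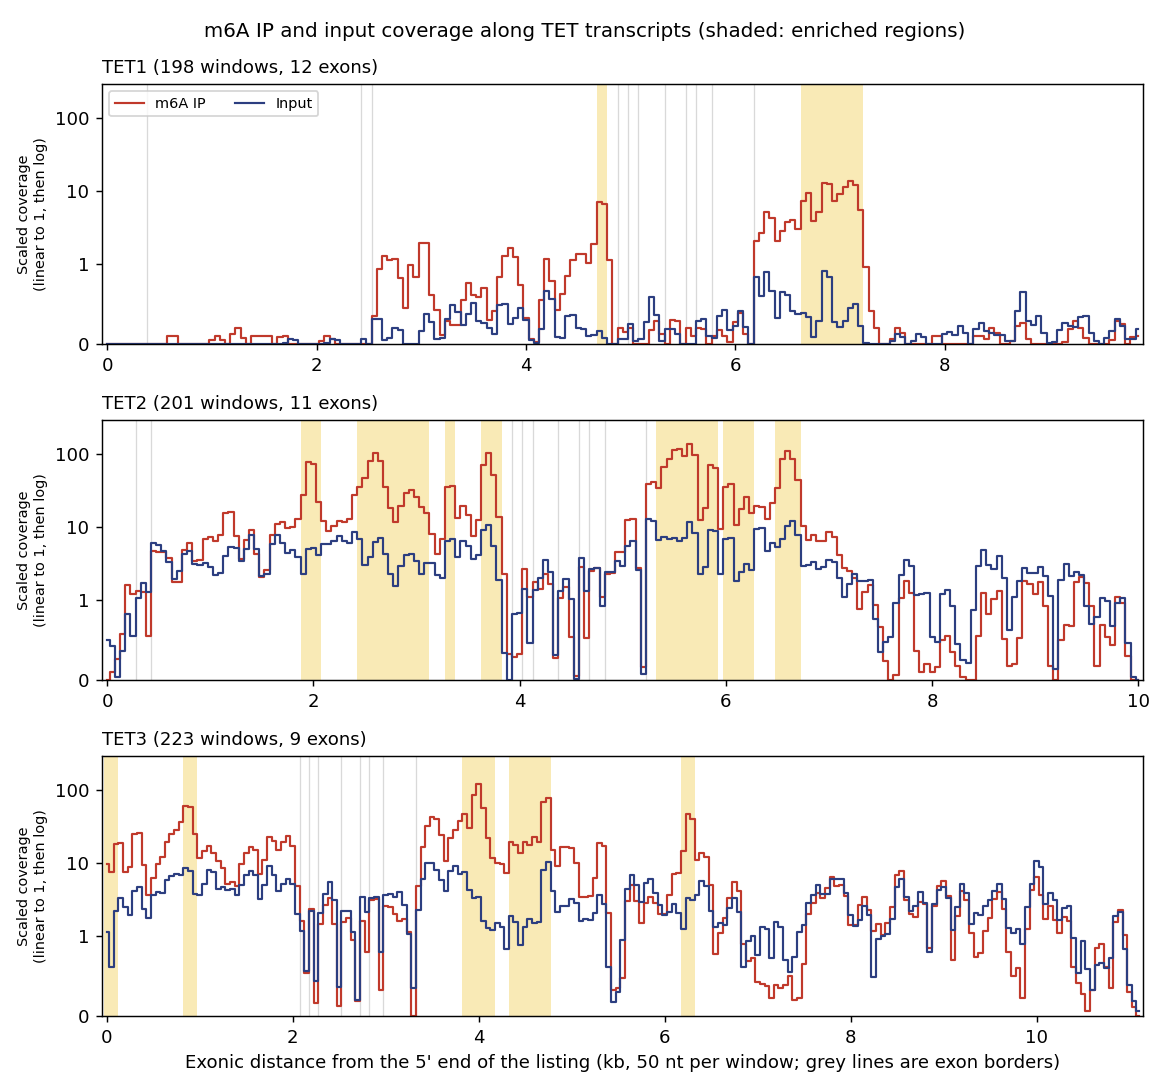
Scaled coverage of the m6A IP (red) and the input (blue) along the longest listing of TET1, TET2 and TET3, from the 5′ end on the left; the y axis is linear up to 1 and logarithmic above, and each step is 1 window. Shading marks the 2, 7 and 5 enriched regions; they lie in long exons, and IP and input run close together or the IP below the input over the distal part of the last exons.

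TET3 had 5 regions, 2 in exon 1 (42 windows) and 3 in the last exon, exon 9, whose 156 windows make it the longest exon of the 6 listings used. The highest-scoring window of the 6 genes lay 650 nt into exon 9, in a region of 7 windows, with values of 121 (114 to 127) in the IP and 3.42 (2.57 to 4.46) in the input and a score of 4.47. The neighbouring region of 9 windows, 1000 to 1500 nt into the exon, peaked at 22.6 in the IP and 1.5 in the input (score 2.93). Another, of 3 windows at 2850 to 3050 nt, peaked at 47.0 in the IP and 3.25 in the input (3.18). The regions of exon 1 were weaker. One of 3 windows at the very start of the listing had 18.4 in the IP and 2.17 in the input (2.30), and one at 850 to 1050 nt had 59.0 in the IP and 7.80 in the input (2.46).

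The gene-level score of TET3 was 4.33 (4.0 to 4.67), and its interval overlapped that of TET2 and included the upper quartile of genes of like length. The 27 enriched windows, 12.1% of the transcript, held 44.6% of its IP coverage and 12.7% of its input coverage. Among the 2020 measured genes of 98 to 223 windows, 8.37% had 4 or more regions, as TET2 and TET3 did, and 22.7% had regions in 2 or more exons. Without centring on the gene median TET3 had 8 regions.

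TET1 was present at low level, and its regions rest mainly on IP reads. Over the whole listing of 198 windows it carried 1001 reads in the IP and 263 in the input. A region of 12 windows lay 450 to 1100 nt into the last exon, exon 12. Its peak had 13.7 (11.5 to 16.2) in the IP and 0.450 (0.183 to 0.923) in the input, which correspond to 138 and 7.11 reads. A second region, of 2 windows at the 3′ edge of the large internal exon 4, had 6.67 (5.17 to 8.47) in the IP and 0.0737 (0.00289 to 0.371) in the input, corresponding to 67 reads and 1.16 reads. The gene-level score was 3.30 (2.91 to 3.69). The call depended on the number added before the logarithm, since with 5 in place of 1 no region (0) was found and the score was 1.71, and with 0.1 there were 5 regions. Among 388 genes with 97 to 198 windows and a mean input between 0.0686 and 0.336, a range set around TET1 and DNMT3B, 38.7% had a region.

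Coverage of TET1 began mainly at exon 4, a split chosen after the values were seen. Exons 1 to 3, with 51 windows, had a mean of 0.0315 in the IP (0.0137 to 0.0619) and 0.00628 in the input (0.00106 to 0.0200). Exons 4 to 12 had 1.35 in the IP (1.26 to 1.43) and 0.224 in the input (0.198 to 0.253). These correspond to 8.07 IP and 2.53 input reads in exons 1 to 3, and to 993 IP and 260 input reads in exons 4 to 12. As background, shorter TET1 transcripts that start downstream of the exon for the CXXC domain are known. Which start is used here was not tested.

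DNMT3A, the main de novo enzyme of blood cells, had 1 region, of 4 windows, 150 to 400 nt into its last exon, exon 23 of 30 windows. The peak had coverage of 74.9 (69.6 to 80.4) in the IP and 13.1 (11.4 to 15.0) in the input, a score of 2.61. These 4 windows, 4.08% of the transcript, held 38.6% of its IP coverage and 10.5% of its input coverage. The gene-level score was 2.54 (2.32 to 2.75), above that of 64.2% of other measured genes but below the median of genes of like length (3.20). Exon 13, by contrast, averaged 0.786 in the IP and 4.82 in the input, the lowest mean ratio among the DNMT3A exons with an input above 1.

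DNMT3A has 4 listings, and 3 of them share the last exon and its region. The fourth, of 38 windows, ends in another exon of 26 windows with 1.16 in the IP and 1.04 in the input, and had no region. The exon that opens the longest listing had almost no coverage, 0.0491 in the IP and 0.0946 in the input, against 5.30 in the IP and 3.77 in the input over the other exons. The opening exon of the listing of 81 windows had 0.427 in the IP and 0.637 in the input, and that of the listing of 96 windows 0.389 in the IP and 0.0874 in the input. DNMT3A is known to make a shorter protein from an internal promoter.

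DNMT1 had no region (0) along 125 windows in 41 exons, although its input was the highest of the 6. Coverage ranged from 0.0861 to 92.1 in the IP, with a median of 9.40, and from 0.135 to 79.1 in the input, with a median of 12.7. The highest IP window, in exon 22, reached 92.1 where the input was 58.4, a score of 1.04. The highest score was 1.83, in the single window of exon 10, with 7.40 in the IP and 2.11 in the input. Next came the windows of the adjoining exon 11, with 4.87 in the IP and 1.59 in the input (1.58) and with 18.3 and 7.76 (1.54). At a score of 1 or more there were 13 windows, which apart from 1 isolated window formed 5 regions by that lower threshold. The gene-level score was 1.70 (1.24 to 2.16), close to the median of measured genes (1.81) and, as a point value, below the lower quartile of those with 98 to 223 windows (2.03). DNMT1 was the only one of the 6 without a long exon, its largest having 8 windows. Of 2602 measured genes with no exon of 11 or more windows, 8.84% had a region, against 55.5% of the 8154 with such an exon, and of the 49 such genes with 98 to 223 windows, 24.5% had one.

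DNMT3B, the second de novo enzyme, is known mainly from embryonic cells. Its 97 windows carried 57.1 reads in the IP and 105 in the input. No window passed a score of 0.51, and the gene-level score was 0.47 (-0.05 to 1.0). The highest pair of windows lay in its last exon, exon 23, with 0.664 in the IP and 0.269 in the input, corresponding to 6.66 and 4.24 reads per window. At this depth a region like that of DNMT3A was not detectable with 1 added to each value. With 0.1 added, 1 region was found.

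**Figure D2:**
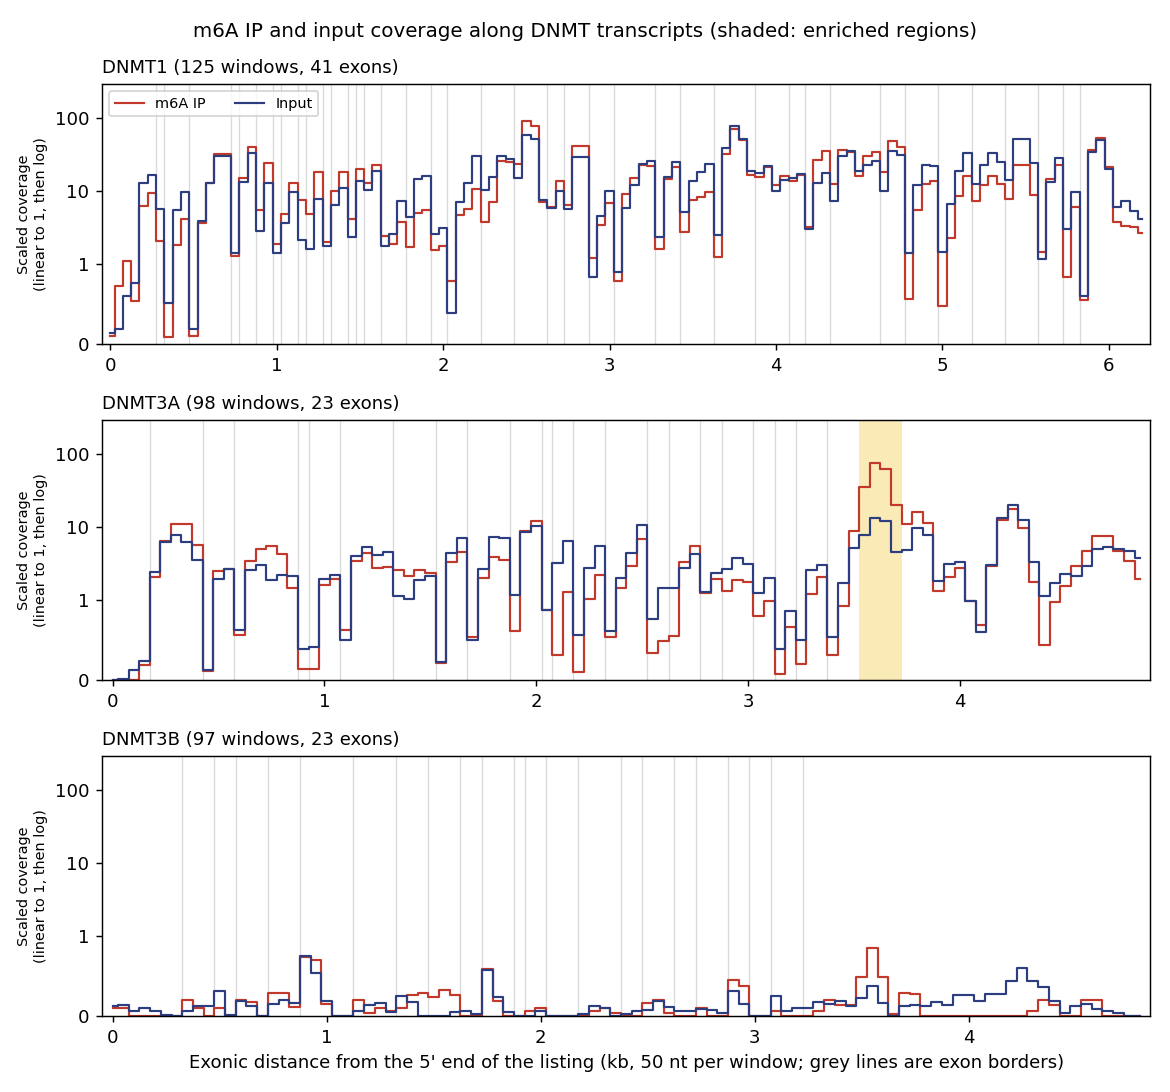
Scaled coverage of the m6A IP (red) and the input (blue) along the longest listing of DNMT1, DNMT3A and DNMT3B, drawn from the 5′ end with the y axis linear up to 1 and logarithmic above. IP and input follow each other along DNMT1, the single shaded region of DNMT3A rises to 74.9 in the IP against 13.1 in the input, and DNMT3B stays below 1 in both libraries.

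All 92 enriched windows, those of TET1, TET2, TET3 and DNMT3A, lay in long exons. Of the 40557 enriched windows of all measured genes, 37876 lay in exons of 11 or more windows, so this placement is near the background. In the 9 exons of 11 or more windows, 92 of 588 windows were enriched (15.6%, exact 95% interval 12.8 to 18.8). In the 100 exons of up to 5 windows none (0) of 284 was, which allows a share of up to 1.06%, and in the 10 exons of 6 to 10 windows none (0) of 70 was, which allows up to 4.29%. For the 4 measured genes the share in long exons was 78 of 394 windows (19.8%, 16 to 24.1), against 9.96% of such windows in all measured genes. TET2 led this pooled share with 28.3%, whereas TET3 had 13.6% and DNMT3A 13.3%, the last from 4 windows. DNMT1 has no long exon and adds nothing to it. In the short exons of the 4 measured genes 0 of 206 windows were enriched, which allows up to 1.46%. The share in all measured genes was 0.149%, so this is near the background. In their exons of 6 to 10 windows it was 0 of 47, which allows up to 6.38%, against 3.81% in all measured genes. This limit includes the background. Neighbouring windows overlap, and the intervals are therefore too narrow.

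The same contrast was seen in the coverage itself. The long exons of TET2 averaged 19 in the IP and 3.79 in the input, and its exons of up to 5 windows 1.30 in the IP and 1.55 in the input. The long exons of TET3 had 10.9 in the IP and 3.26 in the input, and the short ones 1.5 in the IP and 2.09 in the input. For DNMT3A the long exon had 11 in the IP and 5.41 in the input, and the short ones 2.41 in the IP and 2.91 in the input. The short exons of DNMT1 had 14.6 in the IP and 15.6 in the input. The ratio of IP to input in short exons thus lay between 0.715 and 0.932 in these 4 genes.

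**Figure D3:**
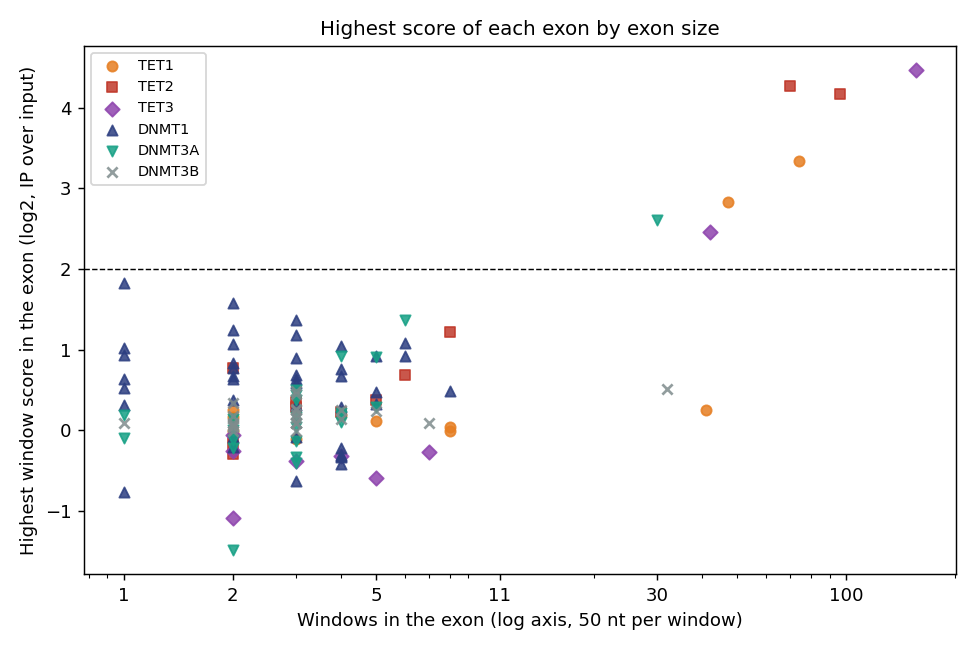
Each point is 1 exon of a TET or DNMT gene, placed by its number of windows (log axis) and the highest window score within it (log2, IP over input); the dashed line is a score of 2. All exons above the line have 30 windows or more, while the exon of DNMT3B with 32 windows and exon 2 of TET1 with 41 stay below it.

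Within the last exons the enrichment was proximal. The last exon of each gene with a long one was divided into 4 equal parts from its 5′ edge, a division chosen after the coverage had been seen. TET2 averaged 50.2 in the IP and 6.60 in the input in part 1, 19 in the IP and 3.5 in the input in part 2, 0.520 in the IP and 1.68 in the input in part 3, and 0.848 in the IP and 1.44 in the input in part 4. The IP thus exceeded the input 7.61-fold in part 1 and was below it in parts 3 and 4. In TET3 the ratio of mean IP to mean input was 6.99, 2.51, 0.982 and 0.653 along the 4 parts. In TET1 it was 13.0, 13.1, 0.333 and 0.552, and in DNMT3A 4.31, 1.27, 0.830 and 1.13. DNMT3B, with few reads, had 1.56, 0.476, 0.144 and 0.775. The ratios of TET1 also rest on few reads. Its mean input was 0.0798 in part 2, and its mean IP 0.0668 in part 3 and 0.0878 in part 4.

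Over these 5 last exons, 59 of 196 windows in parts 1 and 2 were enriched (30.1%) and 0 of 192 in parts 3 and 4, which allows a share of up to 1.56%. Among 5231 measured genes with a last exon of 11 or more windows and a known strand, 14.0% of windows were enriched in parts 1 and 2 and 3.51% in parts 3 and 4. TET1 and DNMT3B are not measured genes, so the sets differ. They gave 36 and 16 of the 192 windows, at a mean input of at most 0.346 per part, where adding 1 lowers the score. Neighbouring windows also overlap, so the limit of 1.56% is too narrow and does not place these genes below the background. By gene, parts 1 and 2 had 47.9% in TET2, 31.6% in TET1, 25.6% in TET3, 25% in DNMT3A and 0 of 16 windows in DNMT3B. The long exons upstream had no common order. In TET2 exon 3 the ratio was 1.63, 3.59, 7.58 and 5.59 along the 4 parts, in TET3 exon 1 it was 5.01, 4.84, 1.86 and 2.93, and in TET1 exon 4 it was 6.35, 1.55, 2.33 and 14. The ratio of 14 in TET1 exon 4 rests on a mean input of 0.149. Exon 2 of TET1, also long, had too little coverage for a ratio.

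**Figure D4:**
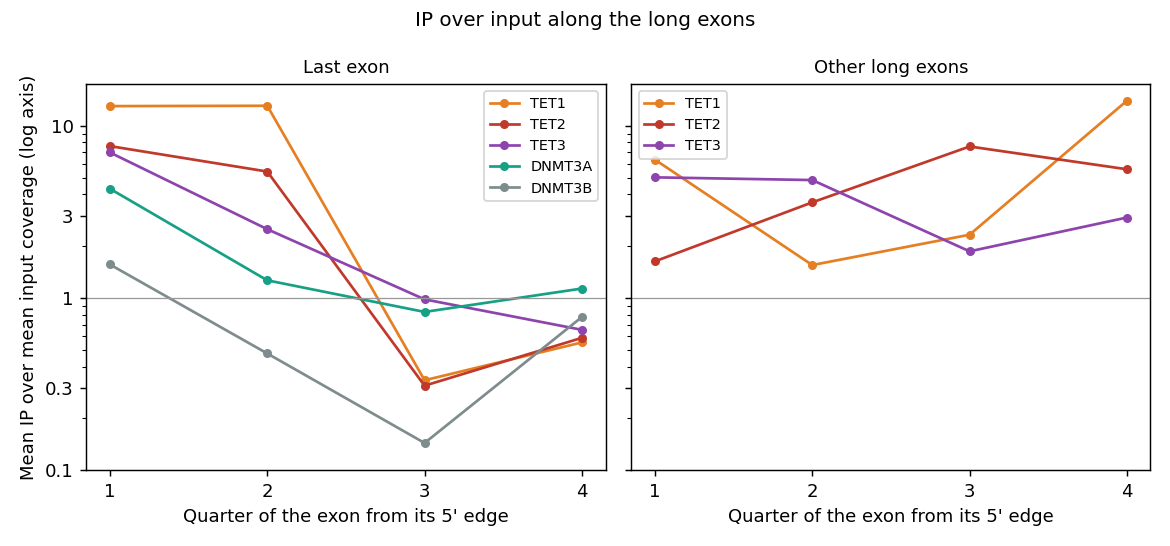
Mean IP over mean input coverage (log axis) in 4 equal parts of each long exon, counted from its 5′ edge, for the last exons (left) and the long exons before them (right). In the last exons TET1, TET2 and TET3 start between 6.99 and 13.0 and end between 0.552 and 0.653, whereas the other long exons show no shared order. The ratios of TET1 and DNMT3B rest on few reads.

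Other genes of DNA methylation were taken from 5 lists of partners, 51 genes, all found and 45 measured. Of these 24 had an enriched region, against 44.2% of all measured genes, and their median gene-level score was 2.32, against 3.35 for the 4 measured TET and DNMT genes and 1.81 for all measured genes. The members' median was near that of measured genes of their length (3.20). In the list of methyl-CpG binding proteins, which includes readers of the mark that the DNMT enzymes place, 7 of 8 had a region. The median length in this list was 108 windows, and 74.0% of measured genes with 98 to 223 windows had a region. MBD1 scored 4.33 (270.6 in the IP and 13.7 in the input at its highest pair of windows), and MBD2 had no region, at 0.77. Of 7 measured CXXC and TET partner proteins 5 had a region. CXXC4 (also called IDAX), a CXXC protein that binds TET2, scored 6.19 with 395.6 in the IP and 6.20 in the input. The corepressor SIN3A scored 5.77, and CXXC5 scored 1.45. The low score of CXXC5 depended on centring on its gene median. Its highest pair had 63.3 in the IP and 8.51 in the input, and without centring it scored 2.77.

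In the list of maintenance partners 5 of 8 measured genes had a region. The share was 44.2% over all measured genes and 55.5% over those with an exon of 11 or more windows. These shares also apply to the lists below, and no list was tested against them. UHRF1, which recruits DNMT1 to hemimethylated DNA, scored 3.68 with 174 in the IP and 12 in the input, unlike DNMT1 itself, and the acetyltransferase KAT5 scored 3.53. DMAP1, a DNMT1-associated protein, had 0.86. Of the genes of demethylation, base excision repair and deamination 4 of 12 measured had a region. They were led by the glycosylase SMUG1 at 4.27 and the ligase LIG3 at 3.98, and the polymerase POLB was lowest at 0.93. Among the genes that supply S-adenosylmethionine, one-carbon units and 2-oxoglutarate, 3 of 10 had one. MAT2A, which makes S-adenosylmethionine, scored 4.09, and SHMT2, the mitochondrial serine hydroxymethyltransferase, 0.73. The list median was 3.56 for methyl-CpG binding proteins and 4.38 for CXXC and TET partners. It was 2.61 for maintenance partners, 1.41 for demethylation and repair and 1.27 for the supply genes. The median number of windows ran in nearly the same order, 108, 117, 65.5, 53.5 and 55, and its part in the scores was not tested.

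**Figure D5:**
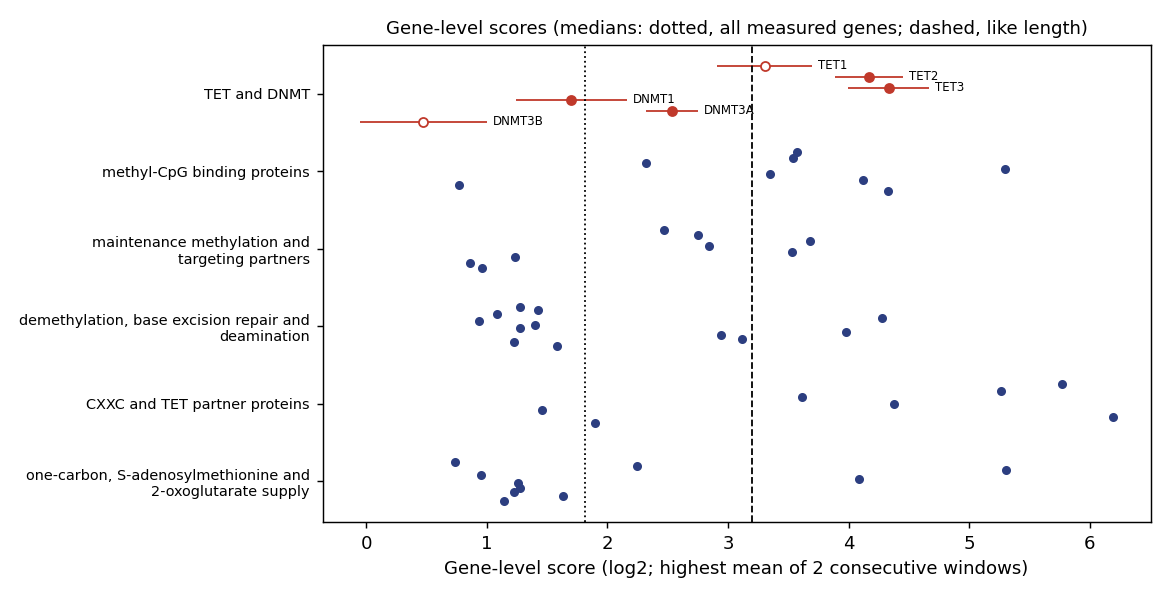
Gene-level scores (log2) of the TET and DNMT genes (red, with 95% counting intervals; open circles fell below the input minimum) and of the measured genes of 5 partner lists (blue, 1 point per gene). TET3 and TET2 at 4.33 and 4.17 lie right of the dotted median of measured genes (1.81) and of the dashed median of those with 98 to 223 windows (3.20), DNMT3A at 2.54 lies between the lines, and DNMT1 at 1.70 lies left of both.

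For each measured gene the most alike transcript was sought among measured genes with the peak in the same exon class and a number of windows within 25%. Likeness was the distance over log2 mean input, log2 mean IP and gene-level score, from the 2 libraries. For TET2 it was SETD2, a histone methyltransferase gene (18.3 in the IP, 4.30 in the input, score 3.96, distance 0.43). For TET3 it was IPO9, an importin (8.62 in the IP, 3.11 in the input, score 3.94, distance 0.43). For DNMT3A it was KAT7, an acetyltransferase (5.35 in the IP, 3.74 in the input, score 2.63, distance 0.13). DNMT1 was closest to FAM120A (14.1 in the IP, 15.0 in the input, score 1.47, distance 0.24). A gene-level score below 2 allows no region, so the lack of one in FAM120A follows from the matching.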

How the data were processed

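The table holds, per the file headers, windowed coverage of both libraries. This signal was scaled by the authors, each library by its own factor, which the sources used here do not state. The authors' gene medians and window score were also deposited. The score is a log2 value per the authors' header and its own arithmetic, and recomputing it from the coverage returned the same numbers. Per the submitters' processing notes, TopHat 1.1.3 and hg19 were used; coverage program and annotation: not given in the sources used here. Above 0, 100.0% of signal values were whole multiples of 1 step (tolerance 0.01 step). Isolated reads added 37 positions, and read numbers per window are covered positions divided by 37. Totals over exons or transcripts are divided further by the ratio of window length (100 nt) to spacing (50 nt), because windows overlap.

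Python 3.11.15 (with matplotlib 3.10.9, scipy 1.17.1, pandas 2.3.3 and numpy 2.4.6) computed regions, gene-level scores and levels. Intervals are exact Poisson for coverage, exact binomial for shares, and propagated from Poisson errors for scores and ratios, with gene medians held fixed. The calling of regions was checked on simulated data with independent windows and even coverage outside an added peak. That check used the depth of measured genes, so it does not cover TET1 or DNMT3B. With 1 library per group no test was run. All 6 genes are named, and from each partner list the 2 highest and the 1 lowest measured scores. A few genes chosen in this way are not reported here. Members and lists were chosen with earlier results of these data known. Alternatives changed the threshold, run length, number added, centring, listing and input minimum. RefSeq's GRCh38.p14 table gave strand and older symbols only.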

Additional observations from a re-analysis of the deposited data

How the results depend on the processing

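With 1 library per group, no alternative leaves out a replicate, and all limits concern the score and depth. The number of measured members with a region was 3 of 4 in the main setting, 4 at a threshold of 1, 2 at a threshold of 3, 3 with the other pseudocounts, centring, medians and run length, 0 of 1 at an input minimum of 5, where only DNMT1 is left, and 4 of 6 with no input minimum, against 14.1% of 47257 genes. At a threshold of 1, 39 partner genes had a region, against 24. The share of all measured genes with a region was 71.4% at a threshold of 1 and 26.0% at 3.

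Region counts moved as follows. At a threshold of 1 TET3 had 8 and DNMT1 5. At a threshold of 3 TET1 and TET3 had 1 each and DNMT3A 0. With runs of at least 4 windows TET1 had 1 and TET3 2. With a pseudocount of 0.1 TET1 had 5 and DNMT3B 1, and with 5 TET1 had 0. Without centring TET3 had 8.

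Gene-level scores left their counting intervals with a pseudocount of 0.1 in TET1 (4.96), TET2 (4.48), TET3 (4.69) and DNMT3B (2.42). With a pseudocount of 5 they did so in TET1 (1.71), TET2 (3.45), TET3 (3.53), DNMT1 (1.12) and DNMT3A (2.14). With medians over the listing used, TET2 had 3.51. Over 4 windows TET3 had 3.94. TET1 was thus highest of the 3 TET genes at 0.1 and lowest at 5.

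With medians over windows the log2 ratio of IP to input was 0.067 for TET1, 0.63 for TET2, 0.42 for TET3, -0.43 for DNMT1, -1.44 for DNMT3B and, with its sign turned, -0.35 for DNMT3A. The median input was 0.0951 for TET1, 2.74 for TET2, 2.56 for TET3, 12.7 for DNMT1 and 2.62 for DNMT3A, and the mean over all listings 2.66 for TET2 and 3.44 for DNMT3A. TET1 and DNMT3B, with 263 and 105 input reads, are limited by depth.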
